A study of Mus musculus with 12 samples.

Results

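The NF-E2, NRF, MAF and BACH1 network was followed through 4 stages of terminal erythroid differentiation in mouse bone marrow. Its 9 genes were taken by name from the 29838 genes of the FPKM table (fragments counted per length of transcript and per sequenced fragments of the library), and each had 1 row with a value in all 12 libraries. They were Nfe2, Nfe2l1 and Nfe2l2, the small MAF genes Mafk, Mafg and Maff, the repressor gene Bach1, the NRF2 adaptor gene Keap1 and the heme oxygenase gene Hmox1. Proerythroblasts (Pro), basophilic (Baso), polychromatic (Poly) and orthochromatic (Ortho) erythroblasts were sorted from the marrow of young adult wild-type C57BL/6 males, with 3 libraries a stage and no treatment in any group. Leukocytes were depleted by CD45, CD45, CD11b and GR1 were gated out, and the stages were set by Ter119, CD44 and cell size. Ortho replicates 2 and 3 carry only a general erythroblast cell type label and were placed by their titles. The labels do not say whether libraries of a stage came from separate mice, so p-values measure the spread between libraries, which may be technical.

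NF-E2 is a heterodimer. Its large subunit, encoded by Nfe2, belongs to the cap'n'collar (CNC) family of basic leucine zipper factors and cannot bind DNA until it pairs with a small MAF protein, which has a DNA-binding domain but no activation domain. NRF1 and NRF2, encoded by Nfe2l1 and Nfe2l2, use the same small MAF partners at antioxidant response elements, and BACH1 competes for the same partners and represses. Heme binds BACH1 and releases it from its targets, of which Hmox1 is the best known, and KEAP1 holds NRF2 in the cytoplasm and passes it to a ubiquitin ligase. In erythroid cells NF-E2 sites lie in the globin locus control regions, and these factors act where heme, globin and oxidative load rise together.

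The sequences just before the start sites were searched for motifs of the network, and for the GATA motif, which is not one of its own. Windows of 250 bases before a RefSeq start (GRCm38.p6) were available for 7 of the 9 genes, 13 windows in all. Nfe2 and Hmox1 had no window, so nothing below on motifs covers them. The windows were searched on both strands for the NF-E2 core GCTGAGTCA, the antioxidant response core TGACNNNGC and the GATA motif AGATAA, where N is any base. The NF-E2 core is itself a form of the antioxidant core read on the other strand. Of 32851 mouse windows of this kind, 0.39% held the NF-E2 core, 10.2% the antioxidant core and 9.99% the GATA motif. The windows of Mafk (chr5:139791286-139791535, plus strand), Mafg (chr11:120633601-120633797, minus strand), Nfe2l2 (chr2:75704664-75704913, minus strand) and Keap1 (chr9:21239333-21239582, minus strand) are shown because these genes had the lowest adjusted p over the 4 stages among those with a window. Each is given 5′ to 3′ on the gene's strand with the motif in capitals, and that of Mafg is cut to the 197 bases that lie outside its annotated exons.
Mafk: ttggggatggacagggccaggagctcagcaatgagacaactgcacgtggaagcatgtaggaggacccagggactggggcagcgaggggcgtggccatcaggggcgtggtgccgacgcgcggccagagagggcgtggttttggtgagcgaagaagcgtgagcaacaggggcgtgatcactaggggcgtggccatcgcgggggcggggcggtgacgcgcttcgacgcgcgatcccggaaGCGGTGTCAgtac
Mafg: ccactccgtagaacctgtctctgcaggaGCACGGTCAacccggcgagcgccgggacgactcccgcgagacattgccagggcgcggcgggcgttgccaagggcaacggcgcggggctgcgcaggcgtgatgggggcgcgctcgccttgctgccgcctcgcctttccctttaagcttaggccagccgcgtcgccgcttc
Nfe2l2: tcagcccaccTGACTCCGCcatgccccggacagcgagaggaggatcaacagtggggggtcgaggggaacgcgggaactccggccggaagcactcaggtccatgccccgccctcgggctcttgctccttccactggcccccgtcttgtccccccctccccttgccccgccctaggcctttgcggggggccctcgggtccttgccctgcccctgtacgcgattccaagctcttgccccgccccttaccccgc
Keap1: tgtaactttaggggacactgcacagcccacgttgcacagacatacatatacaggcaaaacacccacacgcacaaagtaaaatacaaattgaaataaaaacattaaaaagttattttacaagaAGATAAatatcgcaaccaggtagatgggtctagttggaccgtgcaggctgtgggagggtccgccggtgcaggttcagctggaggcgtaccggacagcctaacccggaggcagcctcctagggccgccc

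The antioxidant core stood 13 to 5 bases before the start of Mafk, 222 to 214 bases before that of Mafg and 240 to 232 bases before that of Nfe2l2. GENCODE M21 starts Mafk further upstream than RefSeq, so that the last 23 bases of its window, the motif included, lie in an annotated exon. The capitals in the Keap1 window mark a GATA motif, 128 to 123 bases before the start, and that window held no antioxidant core. Of its bases, 29 lie in an annotated exon. In 1 of the 3 Maff windows both an antioxidant core and a GATA motif were found, and the windows of Nfe2l1 and Bach1 held none of the 3 motifs. None of the 13 windows held the NF-E2 core. These are matches of letters, and binding was not measured. The windows of Mafk (67.2% GC), Mafg (68% GC) and Nfe2l2 (70.4% GC) were richer in GC than the median window (52.4%), while that of Keap1 was at 49.6%.

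FPKM were tested with limma on log2(FPKM + 1) over the 12994 genes with at least 1 FPKM in at least 3 libraries, and all 9 genes entered. A gene is said to have risen or fallen where its Benjamini-Hochberg adjusted p was under 0.05. A call needed in addition a log2 fold change of at least 1, a 2-fold change. A 3 against 3 exact permutation test cannot give a p below 0.1, so no single-gene permutation test was used. FPKM are relative to all transcripts of a library, and hemoglobin genes made up 8.44% ± 1.95 of the Pro sum, 35.1% ± 1.79 of the Baso sum, 36.6% ± 1.56 of the Poly sum and 49.6% ± 2.74 of the Ortho sum (SD, n = 3). The median log2 fold change of all tested genes against Pro was below 0, at -0.23 (Baso), -0.20 (Poly) and -0.42 (Ortho). The tests and the fold changes given are against 0 and not against this median, and values relative to it are given for Nfe2l2 only. With hemoglobin genes left out and the libraries rescaled, these medians were 0.04, 0.10 and -0.01.

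In Ortho, 5 of the 9 genes were higher than in Pro and 2 were lower. The genes that rose were Mafk, Hmox1, Mafg, Nfe2 and Nfe2l1, and the genes that fell were Keap1 and Nfe2l2. Of all tested genes 22.7% rose and 53.2% fell between the same stages, and the network was not tested as a set. Mafk, Mafg and Hmox1 were called at 2-fold, against 6.33% of all genes called higher and 23.8% called lower. After rescaling to the same sum all 3 still rose but were under 2-fold (Mafk 0.99, Mafg 0.69 and Hmox1 0.75), and Keap1 was then the gene called, as lower (-1.30, adjusted p = 1.72e-06). With a pseudocount of 5 Mafk stayed called (1.26), and Mafg (0.98) and Hmox1 (0.68) did not. Without Pro replicate 1, Hmox1 was under 2-fold (0.98) and Nfe2 was called (1.40), and Keap1 was called as lower without Pro replicate 3 (-1.04) or Ortho replicate 2, where it was at the limit (adjusted p = 8.14e-05). The median log2 fold change of the 9 genes was 0.88. Over the 4 stages together, 6 of the 9 passed the F test, where 78.4% of all genes passed. Nfe2l1 (adjusted p = 0.118), Bach1 (adjusted p = 0.0720) and Maff (adjusted p = 0.961) did not pass it, and Nfe2 was just under the threshold (adjusted p = 0.0496). By FPKM, which are per length, the mean levels in Ortho ran from Mafk (92.2) and Nfe2 (89.7) through Mafg (79.0), Nfe2l2 (26.3), Bach1 (13.5), Keap1 (12.8) and Nfe2l1 (11.5) to Hmox1 (9.50) and Maff (1.29). Mafk and Nfe2 overlapped in this order, as did Bach1, Keap1 and Nfe2l1, while the other neighbours were apart.

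**Figure D1:**
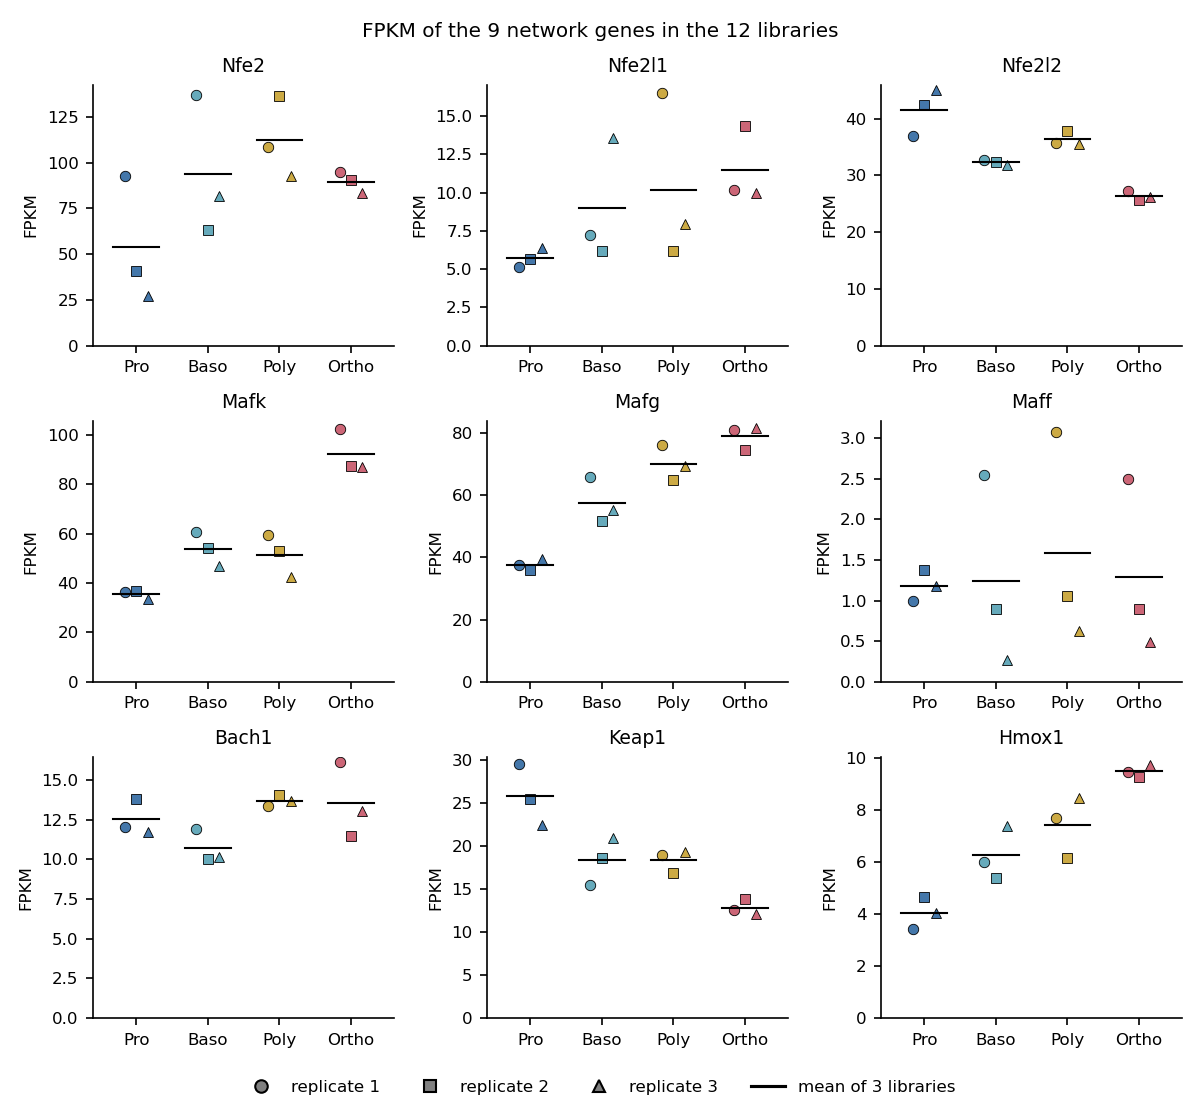
FPKM (vertical axes, from 0) of the 9 genes in each of the 12 libraries by stage (horizontal axes). Symbols mark the replicate number and bars the mean of 3 libraries. Mafk, Mafg and Hmox1 were lowest in Pro and highest in Ortho, Nfe2l2 and Keap1 were lowest in Ortho, and the Pro libraries of Nfe2 spread from 27.3 to 93.0 FPKM.

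**Figure D2:**
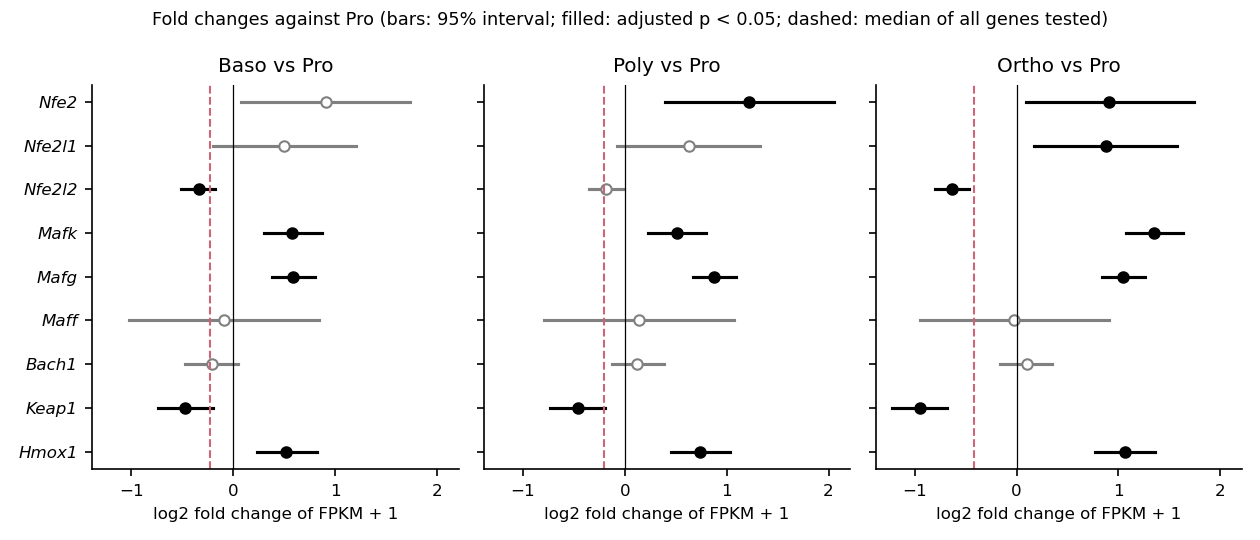
Log2 fold change of FPKM + 1 against Pro (horizontal axes) for each gene, with 95% intervals as bars. Filled points had an adjusted p under 0.05, and the dashed line is the median of all genes tested. In Ortho, Mafk, Mafg and Hmox1 lie above 1, and the intervals of Maff and Bach1 include 0.

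Nfe2, the tissue-restricted subunit (chr15:103248212-103258403, minus strand), had the highest mean of the CNC genes at every stage. In Pro this rested on replicate 1, as the ratio of Nfe2 to Nfe2l2 was 2.52 there, 0.962 in replicate 2 and 0.607 in replicate 3. Its FPKM were 93.0, 40.8 and 27.3 in the Pro libraries, 137, 63.1 and 82.0 in Baso, 109, 136 and 92.5 in Poly, and 95.1, 90.5 and 83.5 in Ortho. The Pro libraries differed among themselves more than the stage means did, with Pro replicate 1 at the level of Ortho, and no pair of stages was without overlap. Nfe2 rose in Poly by a log2 fold change of 1.22 ± 0.38 (SE, adjusted p = 0.0137) and in Ortho by 0.91 ± 0.38 (adjusted p = 0.0444). In Baso its log2 fold change was also 0.91, with an adjusted p of 0.0587. The Poly call was lost without Pro replicate 3 (0.84, adjusted p = 0.0618) and without the filter on low values (adjusted p = 0.0546). The Ortho result was lost without any 1 of Pro replicates 2 and 3, Baso replicate 3, Poly replicates 1 and 3 or the 3 Ortho libraries, where adjusted p ranged from 0.0508 to 0.198 and the value was 0.53 without Pro replicate 3. It was 1.40 without Pro replicate 1 (adjusted p = 0.00117). It was also lost without the filter (adjusted p = 0.131), with the 2 stages fitted alone (adjusted p = 0.0599) and when libraries were rescaled to the same sum (0.55, adjusted p = 0.209). Baso passed without Pro replicate 1 (1.39, adjusted p = 0.00212) or without Baso replicate 2 (1.16, adjusted p = 0.0353), with hemoglobin left out (1.22, adjusted p = 0.0214) and with libraries centred (1.20, adjusted p = 0.0191). In Ortho the values under those 2 scalings were 1.40 (adjusted p = 0.00712) and 1.31 (adjusted p = 0.00880).

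The Pro libraries of Nfe2 also differed in markers of other lineages. Summed megakaryocyte and platelet markers, a lineage in which NF-E2 is required for platelet release, were 78.6 FPKM in Pro replicate 1, 116 in replicate 2 and 140 in replicate 3, the reverse of the order of Nfe2. Across stages this sum went from 112 ± 30.9 in Pro to 47.5 ± 5.48 in Ortho (SD, n = 3), while Nfe2 went the other way. Of its 10 markers 7 fell and 1 rose in Ortho, where 53.2% of all tested genes fell and 22.7% rose. Summed neutrophil markers in Pro (7469, 8247 and 9225 FPKM) also ran in the reverse order of Nfe2. The macrophage, B cell, T and NK cell, and mast cell and basophil sums did not. The part of these cells in the Nfe2 values was not tested. By Pearson correlation over the 12 libraries, among 7149 genes with a stage mean of at least 10 FPKM, the genes most like Nfe2 were the immunoglobulin segments Igkv8-30 (r = 0.870) and Ighv3-6 (r = 0.868), and correlations over libraries of 4 stages share the stage differences.

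Nfe2l1 (chr11:96817414-96829968, minus strand) encodes NRF1, the membrane-bound factor that induces proteasome genes when proteasome activity is low. It was measured at 5.13, 5.69 and 6.41 FPKM in Pro, 7.22, 6.20 and 13.6 in Baso, 16.5, 6.17 and 7.92 in Poly, and 10.2, 14.4 and 9.95 in Ortho. All Ortho libraries lay above all Pro libraries, but single libraries of Baso and Poly reached the Ortho range. Nfe2l1 rose in Ortho by 0.88 ± 0.32 (SE, log2, adjusted p = 0.0267), and its values in Baso (0.50, adjusted p = 0.202) and Poly (0.63, adjusted p = 0.105) did not pass. Poly passed with hemoglobin left out (0.92, adjusted p = 0.0254), with libraries centred (0.88, adjusted p = 0.0306) and without Poly replicate 2 (0.89, adjusted p = 0.0347), and Ortho was at 1.31 with hemoglobin left out (adjusted p = 0.00337) and at 1.27 with libraries centred (adjusted p = 0.00371). The Ortho result was lost without Pro replicate 1 (adjusted p = 0.0714), Pro replicate 2 (adjusted p = 0.0568) or Ortho replicate 2 (adjusted p = 0.0949), without the filter (adjusted p = 0.0866) and after rescaling to the same sum (0.55, adjusted p = 0.141).

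Nfe2l2, which encodes NRF2 (chr2:75675513-75704641, minus strand), varied by at most 9.96% of its mean within a stage (coefficient of variation, in Pro). Its FPKM were 36.9, 42.4 and 45.0 in Pro, 32.7, 32.4 and 31.9 in Baso, 35.7, 37.8 and 35.5 in Poly, and 27.2, 25.6 and 26.2 in Ortho. The Ortho libraries lay below all others, and Baso lay below Poly. Nfe2l2 fell in Baso by 0.34 on the log2 scale (SE 0.08, adjusted p = 0.00240) and in Ortho by 0.63 (SE 0.08, adjusted p = 1.37e-05), and it fell again from Poly to Ortho by 0.45 (adjusted p = 0.000738). Its Poly value against Pro was -0.18 (adjusted p = 0.0529), which turned to 0.16 with hemoglobin left out and 0.07 with libraries centred on their medians. It passed as a fall after rescaling to the same sum (-0.36, adjusted p = 0.00151), without Pro replicate 1 (-0.26, adjusted p = 0.00511), with a pseudocount of 5 (-0.16, adjusted p = 0.0498) and with a mean filter of 5 FPKM (adjusted p = 0.0485). Relative to the median gene, the value against Pro was -0.12 in Baso and -0.21 in Ortho, and with hemoglobin genes left out it was -0.04 in Baso (adjusted p = 0.688) and -0.15 in Ortho (adjusted p = 0.0704). With libraries centred it was -0.05 in Baso (adjusted p = 0.611) and passed in Ortho (-0.23, adjusted p = 0.0148). The fall from Poly to Ortho passed in all 22 alternatives, with values from -0.63 to -0.30. Among the genes most like Nfe2l2 were 2810403A07Rik (r = 0.977) and Txnrd1 (r = 0.968), the thioredoxin reductase gene that is itself an NRF2 target.

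Mafk, the small MAF first purified as part of NF-E2 (chr5:139791513-139802653, plus strand), had the largest change of the network in Ortho. It stood at 36.2, 36.7 and 33.4 FPKM in Pro, 60.6, 54.4 and 46.7 in Baso, 59.4, 52.8 and 42.3 in Poly, and 102, 87.3 and 86.9 in Ortho. The pattern was of steps: all Baso libraries lay above all Pro libraries, Baso and Poly overlapped, and all Ortho libraries lay above both. Mafk rose by 0.58 ± 0.13 in Baso (SE, log2, adjusted p = 0.00233), by 0.51 ± 0.13 in Poly (adjusted p = 0.00402) and by 1.35 ± 0.13 in Ortho (adjusted p = 1.96e-06). From Poly to Ortho it rose by 0.84 ± 0.13 (adjusted p = 0.000367), more than 98.2% of the tested genes. The genes most like Mafk were Zfand5 (r = 0.990) and Tax1bp1 (r = 0.986).

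Mafg, a small MAF of broad expression (chr11:120625117-120633600, minus strand), started at the level of Mafk and rose in Baso and Poly. Its FPKM were 37.4, 36.0 and 39.6 in Pro, 66, 51.7 and 55.3 in Baso, 76.2, 64.9 and 69.2 in Poly, and 81.0, 74.4 and 81.6 in Ortho. The means increased at each stage, but Baso overlapped Poly and Poly overlapped Ortho. Against Pro, Mafg rose by 0.59 ± 0.10 in Baso (SE, log2, adjusted p = 0.000290), 0.88 ± 0.10 in Poly (adjusted p = 1.13e-05) and 1.05 ± 0.10 in Ortho (adjusted p = 1.42e-06). From Baso to Poly its value was 0.28 (adjusted p = 0.0748), which passed with the replicate number as a block (adjusted p = 0.0366), with hemoglobin left out (0.32, adjusted p = 0.0476) and without Baso replicate 1 (0.38, adjusted p = 0.0249). From Poly to Ortho it was 0.17 (adjusted p = 0.241), which passed with hemoglobin left out (0.31, adjusted p = 0.0292) and with libraries centred (0.32, adjusted p = 0.0243). Mafg shares 124 exon bases with Sirt7 on the same strand, which was measured at 23.5 to 39.9 FPKM, so fragments there could be counted to either gene. The ratio of Mafk to Mafg averaged 0.944 ± 0.0918 among Pro libraries, 0.939 ± 0.105 among Baso, 0.735 ± 0.108 among Poly and 1.17 ± 0.0997 among Ortho libraries (SD, n = 3), and all Ortho libraries (1.06 to 1.26) lay above all others (highest 1.05).

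Maff, a small MAF that is inducible in many cells (chr15:79346621-79359076, plus strand), varied with the replicate number in the 3 later stages. Its FPKM were 0.99, 1.37 and 1.18 in Pro, 2.55, 0.89 and 0.27 in Baso, 3.07, 1.05 and 0.63 in Poly, and 2.50, 0.89 and 0.49 in Ortho. In each of Baso, Poly and Ortho, replicate 1 was highest and replicate 3 lowest, while the Pro libraries were close together. No comparison passed (F test over the 4 stages, adjusted p = 0.961), and the sign of each of the 5 comparisons turned in at least 1 alternative. The 2 genes most like Maff over the 12 libraries were Nr4a1 (r = 0.967), an orphan nuclear receptor gene, and Dusp5 (r = 0.962), a phosphatase gene, both induced early after stimulation. Nr4a1 was at 35.8, 12.3 and 5.90 FPKM in Baso, 43.5, 16.7 and 7.11 in Poly, and 44.1, 18.8 and 7.53 in Ortho, against 15.0 to 17.7 in Pro. Dusp5 showed the same order, with 34.0, 8.71 and 3.99 in Baso, 40.1, 11.3 and 5.53 in Poly, and 44.4, 12.6 and 5.89 in Ortho, against 7.95 to 10.2 in Pro. Whether handling of the cells differed between these libraries is not given in the labels and was not tested.

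**Figure D3:**
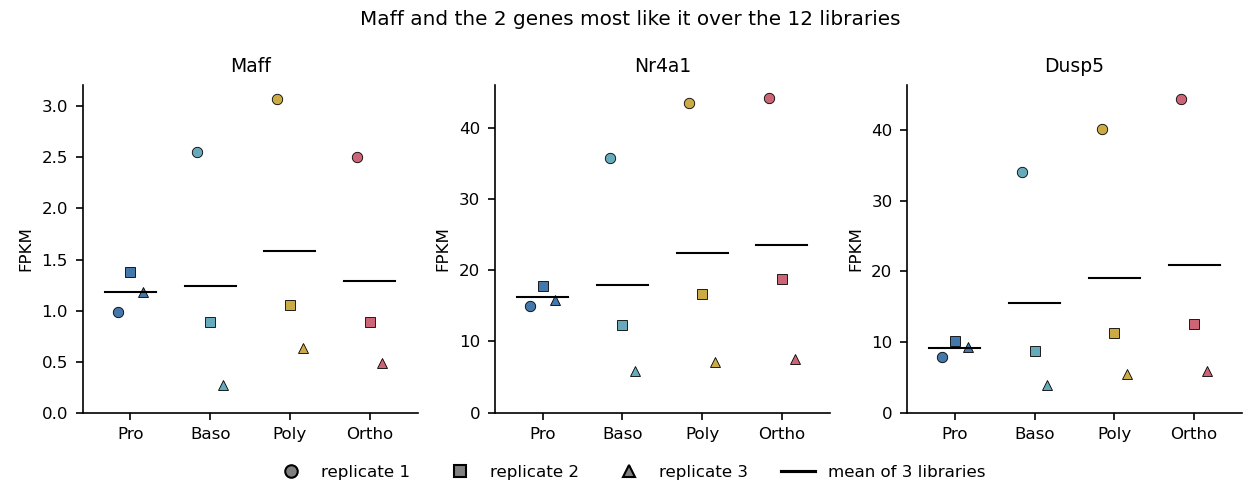
FPKM (vertical axes, from 0) of Maff, Nr4a1 and Dusp5 by stage, with the replicate number as the symbol and the mean of 3 libraries as a bar. In Baso, Poly and Ortho replicate 1 was the highest library and replicate 3 the lowest for all 3 genes.

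Summed over the small MAF genes, the FPKM of the Pro libraries averaged 74.3 ± 0.325, those of Baso 113 ± 14.4, those of Poly 123 ± 13.8 and those of Ortho 172 ± 12 (SD, n = 3). The sum of their CNC and BACH partners (Nfe2, Nfe2l1, Nfe2l2, Nfe2l3, Bach1 and Bach2) averaged 116 ± 29.6 among Pro, 151 ± 40.0 among Baso, 180 ± 20.9 among Poly and 149 ± 7.71 among Ortho libraries. The ratio of small MAFs to partners, which does not depend on how a library is scaled, was 0.663 ± 0.151, 0.769 ± 0.138, 0.691 ± 0.0888 and 1.16 ± 0.0561 in the same order. In Ortho it lay between 1.09 and 1.196, above every library of the other stages (0.499 to 0.926). It is a ratio of transcripts per length and says nothing of protein. Within the partners, Nfe2 made up 43.2% ± 16.9 of the summed FPKM in Pro and 60.2% ± 1.0 in Ortho. These stages overlapped, as Pro replicate 1 (62.1%) lay above all Ortho libraries (59.1% to 60.9%). Nfe2l2 made up 37.6% ± 12 in Pro and 17.7% ± 0.736 in Ortho, without overlap.

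**Figure D4:**
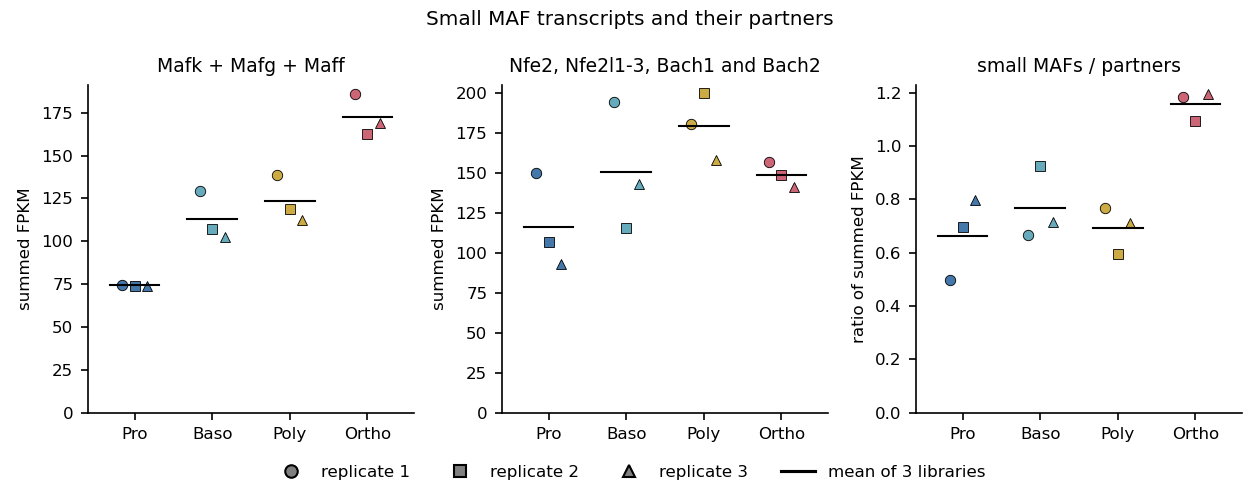
Summed FPKM of the small MAF genes (left), of their CNC and BACH partners (middle) and the ratio of the sums (right) in each library by stage, with the mean of 3 libraries as a bar. The ratio was 1.09 to 1.196 in the Ortho libraries and at most 0.926 in the others.

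Bach1, the heme-sensitive repressor (chr16:87698945-87733346, plus strand), was measured at 12.02, 13.8 and 11.7 FPKM in Pro, 11.9, 10.02 and 10.1 in Baso, 13.4, 14.0 and 13.6 in Poly, and 16.1, 11.5 and 13.0 in Ortho. The libraries of Poly lay above those of Baso, and all other pairs of stages overlapped. None of its comparisons passed: the log2 fold change against Pro was -0.21 at Baso, 0.12 at Poly and 0.10 at Ortho (95% interval -0.16 to 0.35, adjusted p = 0.463), and 0.33 from Baso to Poly (adjusted p = 0.0852). The Ortho value depended on scaling, at 0.55 with hemoglobin left out (adjusted p = 0.00107), 0.49 with libraries centred (adjusted p = 0.00196) and -0.25 after rescaling to the same sum (adjusted p = 0.0942), so no direction is given for Bach1. The genes most like it were 4932438A13Rik (r = 0.868) and Smad2 (r = 0.852).

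Keap1 encodes the adaptor that hands NRF2 to the CUL3 ligase (chr9:21229730-21239361, minus strand). It stood at 29.5, 25.4 and 22.4 FPKM in Pro, 15.5, 18.6 and 20.9 in Baso, 18.9, 16.9 and 19.3 in Poly, and 12.5, 13.8 and 12 in Ortho. All Pro libraries lay above all later ones and all Ortho libraries below all earlier ones, while Baso and Poly overlapped. The fall was 0.47 on the log2 scale in Baso (adjusted p = 0.00628), 0.46 in Poly (adjusted p = 0.00589) and 0.95 in Ortho (SE 0.12, adjusted p = 2.30e-05), and from Poly to Ortho it was 0.49 (adjusted p = 0.00964). With hemoglobin left out the Ortho value was -0.48 (adjusted p = 0.00495), while those of Baso (-0.17, adjusted p = 0.290) and Poly (-0.12, adjusted p = 0.406) no longer passed, nor did those of Baso and Poly with libraries centred. The value from Poly to Ortho did not pass either with hemoglobin left out (-0.36, adjusted p = 0.0574) or with libraries centred (-0.34, adjusted p = 0.0594). The antisense gene Gm16754 shares 510 exon bases with Keap1 and was measured at 0.298 to 2.94 FPKM, and a strand setting of the counting is not given in the sources used here. The ratio of Nfe2l2 to Keap1 averaged 1.65 ± 0.379 among Pro and 2.07 ± 0.184 among Ortho libraries (SD, n = 3), and the 2 stages overlapped. Kif1bp and Rbbp7 were most like Keap1 (both r = 0.977).

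Hmox1, the target gene whose product opens the heme ring (chr8:75093621-75100589, plus strand), rose at low levels. Its FPKM were 3.44, 4.66 and 4.03 in Pro, 6.02, 5.40 and 7.38 in Baso, 7.69, 6.16 and 8.47 in Poly, and 9.47, 9.30 and 9.74 in Ortho. All later libraries lay above all Pro libraries, and the Ortho libraries lay above all others. Hmox1 rose by 0.52 ± 0.13 in Baso (SE, log2, adjusted p = 0.00590), 0.74 ± 0.13 in Poly (adjusted p = 0.000499) and 1.06 ± 0.13 in Ortho (adjusted p = 2.06e-05), and these 3 results passed in all 22 alternatives. From Poly to Ortho the value was 0.32 (adjusted p = 0.105), which passed with hemoglobin left out (0.46, adjusted p = 0.0240) and with libraries centred (0.47, adjusted p = 0.0220).

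Markers of other cells moved with Hmox1, which macrophages that take up red cells express strongly. Summed over 10 macrophage markers, FPKM lay between 29.7 and 36.0 in the Pro libraries, between 39.7 and 42.4 in Baso, between 49.0 and 56.0 in Poly and between 63.1 and 74.1 in Ortho. The means of 9 of the 10 were higher in Ortho than in Pro, but only for 4 did all Ortho libraries lie above all Pro libraries. Of the 10, 4 passed the filter and were tested, and 3 of these rose. The mean of Vcam1 was 3.03 FPKM in Pro and 2.25 in Ortho, and that of Cd163 was 0.785 and 0.966. Mertk, C1qb, C1qc and Marco were under 1 FPKM in all libraries. The neutrophil markers, although CD11b and GR1 were gated out, summed to between 7469 and 9225 FPKM in Pro and between 14657 and 18341 in Ortho, with 10 of 10 higher. The B cell markers (60.7 to 106 in Pro, 153 to 198 in Ortho, 8 of 8 higher) and the mast cell and basophil markers (219 to 357 in Pro, 597 to 697 in Ortho, 5 of 5 higher) went the same way. Higher in these counts means an adjusted p under 0.05. Of all tested genes 22.7% rose and 53.2% fell in Ortho. Of 8 T and NK cell markers 4 had higher means in Ortho, and Cd3e, Cd3d, Cd3g, Cd8a and Trac were under 1 FPKM in all libraries. The genes most like Hmox1 were Il16 (r = 0.972) and Gpr65 (r = 0.970), both known from leukocytes. In bulk libraries more or fewer cells of a type and more or less RNA per cell cannot be told apart, and the part of these cells in the values of Hmox1, Mafk, Mafg, Nfe2 and Nfe2l1 was not tested. Of the 8 erythroid markers, 4 rose and 3 fell in Ortho, all 3 by more than 2-fold. Those that fell were Epor (log2 -1.66), Gata1 (-2.04) and Klf1 (-2.19), which encode the erythropoietin receptor and erythroid transcription factors. Alas2 (log2 2.74) and Slc4a1 (1.55), for heme synthesis and the membrane anion exchanger, rose by more than 2-fold.

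In Baso, 3 of the 9 network genes were higher than in Pro (14.9% of all tested genes) and 2 were lower (42.1%). None was called at 2-fold (1.82% of all genes higher, 8.54% lower), with 6 of 9 at an unadjusted limma p under 0.05. The share of all genes at an unadjusted p under 0.05 was not counted for this or the later steps, so these counts are not read as a result. In Poly, 4 were higher (23.3% of all genes) and 1 was lower (42.7%), and Nfe2 alone was called (3.59% higher, 12.8% lower). From Baso to Poly 0 of 9 passed in either direction by limma, with 2 of 9 (Mafg and Bach1) at an unadjusted p under 0.05. Of all genes 6.58% rose and 5.77% fell at that step, and 0.0616% and 0.454% were called. From Poly to Ortho, Mafk rose (4.43% of all genes) and Nfe2l2 and Keap1 fell (21.7%), and none was called at 2-fold (1.05% higher, 4.81% lower), with 4 of 9 at an unadjusted p under 0.05. The 3 comparisons with Pro share the Pro libraries, so that they are not independent. The share of 2-fold calls that were higher depended on scaling, which bears on these percentages: in Ortho it was 21% as deposited, 63.4% with hemoglobin left out, 61.6% with libraries centred and 6.16% after rescaling to the same sum. In Baso it was 17.6%, 53.8%, 57.5% and 8.71%, and in Poly 21.9%, 64.1%, 56.9% and 10.5%, in the same order. From Poly to Ortho it was 18.0%, 28.6%, 31.0% and 9.44%.

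Among related factors outside the network, Bach2, a BACH1 relative of B cells, rose from 2.86 ± 0.747 FPKM in Pro to 7.66 ± 0.910 in Ortho (SD, n = 3, log2 1.18, adjusted p = 7.90e-05). Maf, a large MAF gene named after its values were seen, was at 0.535 ± 0.104 FPKM in Pro and 1.14 ± 0.167 in Ortho. It lay near the filter of 1 FPKM and passed it only through libraries of Baso and Ortho. Its test against Pro is therefore not read as a result. The means of Bach2 and of the summed B cell and macrophage markers above increased at each stage. That of Maf did not, with 1.11 FPKM in Baso and 0.897 in Poly. The part of such cells in the values of Bach2 and Maf was not tested.

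Of 14 genes that control NRF and BACH1 protein, 9 fell and 2 rose in Ortho. The list was near the table as a whole, in which 53.2% fell and 22.7% rose, with a median of -0.41 against -0.42 for all genes. With hemoglobin left out 4 fell and 3 rose, where 34.4% of all genes fell and 34.8% rose. Rbx1, the RING subunit of the KEAP1-CUL3 ligase, fell from 47.9 ± 1.56 to 23.3 ± 1.29 FPKM (log2 -1.01, adjusted p = 2.66e-07). Ddi2, the protease that activates NRF1, fell from 18.2 ± 1.24 to 9.21 ± 0.161 (log2 -0.91, adjusted p = 8.87e-07). Vcp, which extracts NRF1 from the membrane, fell from 157 ± 19.0 to 102 ± 3.59 (log2 -0.61, adjusted p = 2.79e-05), and Gsk3a, a kinase that marks NRF2 for degradation, from 78.5 ± 8.09 to 45.2 ± 2.23 (log2 -0.78, adjusted p = 3.61e-06). The genes that rose, named after their values were seen, were Sqstm1, whose protein sequesters KEAP1 (log2 0.75, adjusted p = 0.000735), and Btrc, a ligase adaptor (log2 0.68, adjusted p = 8.94e-06).

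In heme breakdown, Hmox1 rose while both biliverdin reductase genes fell. Blvra, which reduces biliverdin to bilirubin, went from 42.5 ± 8.25 FPKM in Pro to 10.8 ± 0.640 in Ortho (SD, n = 3, log2 -1.86, adjusted p = 6.18e-08). Blvrb, the abundant erythroid form, went from 513 ± 86.2 to 272 ± 16.8 (log2 -0.90, adjusted p = 1.07e-05). Hmox2, the constitutive heme oxygenase, was at 18.2 ± 3.53 and 14.6 ± 2.81 (log2 -0.30, adjusted p = 0.235). The ratio of Hmox1 to Hmox2 was 0.169 to 0.329 in the Pro libraries and 0.540 to 0.776 in Ortho, without overlap.

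Of 20 antioxidant response targets 17 were tested, and in Ortho 5 rose, 7 fell and 5 did not pass, where 22.7% of all genes rose and 53.2% fell. The list median was 0.01 against -0.42 for all genes. Gclc, the catalytic subunit of glutathione synthesis, was at 90.4 ± 6.34, 93.1 ± 1.28 and 80.9 ± 1.35 FPKM in Pro, Baso and Poly, where its values did not pass (Poly against Pro -0.16, adjusted p = 0.0507), and fell to 28.5 ± 1.09 in Ortho (log2 -1.63, adjusted p = 4.36e-09). Fth1, the ferritin heavy chain, fell from 2435 ± 130 to 926 ± 44.3 (log2 -1.39, adjusted p = 3.90e-08), while Ftl1, the light chain, was at 1087 ± 161 and 1085 ± 23.0 (log2 0.01, adjusted p = 0.949). The 5 that rose, named after their values were seen, were Osgin1 (log2 1.20), Gsr (0.67), Gstm1 (0.52), Pgd (0.49) and G6pdx (0.25), of which Gsr, Pgd and G6pdx supply or use NADPH for glutathione. Scaling moved the split of 5 rising and 7 falling. It was 9 rising and 6 falling with hemoglobin left out (34.8% and 34.4% of all genes). After rescaling to the same sum it was 2 rising and 10 falling (14.5% and 63.7%).

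Proteasome subunit genes, targets of NRF1, fell together: 31 of 31 were lower than in Pro at Baso, at Poly and at Ortho, where 42.1%, 42.7% and 53.2% of all genes were lower. In Ortho they had a median log2 fold change of -1.24 against -0.42 for all genes. With hemoglobin left out 30 of them were lower, where 34.4% of all genes were lower. Psmd3 went from 114 ± 12.7 to 31.0 ± 4.70 FPKM (SD, n = 3, log2 -1.86, adjusted p = 2.71e-07) and Psmd7 from 108 ± 13.3 to 31.4 ± 1.45 (log2 -1.74, adjusted p = 3.84e-08), both subunits of the regulatory lid. Psmb4 and Psma1, subunits of the core, went from 223 ± 33.0 to 86.3 ± 5.98 (log2 -1.35, adjusted p = 3.25e-07) and from 172 ± 9.03 to 74.8 ± 2.65 (log2 -1.19, adjusted p = 2.86e-08). Over the same stages Nfe2l1 went from 5.74 ± 0.642 to 11.5 ± 2.49 FPKM.

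**Figure D5:**
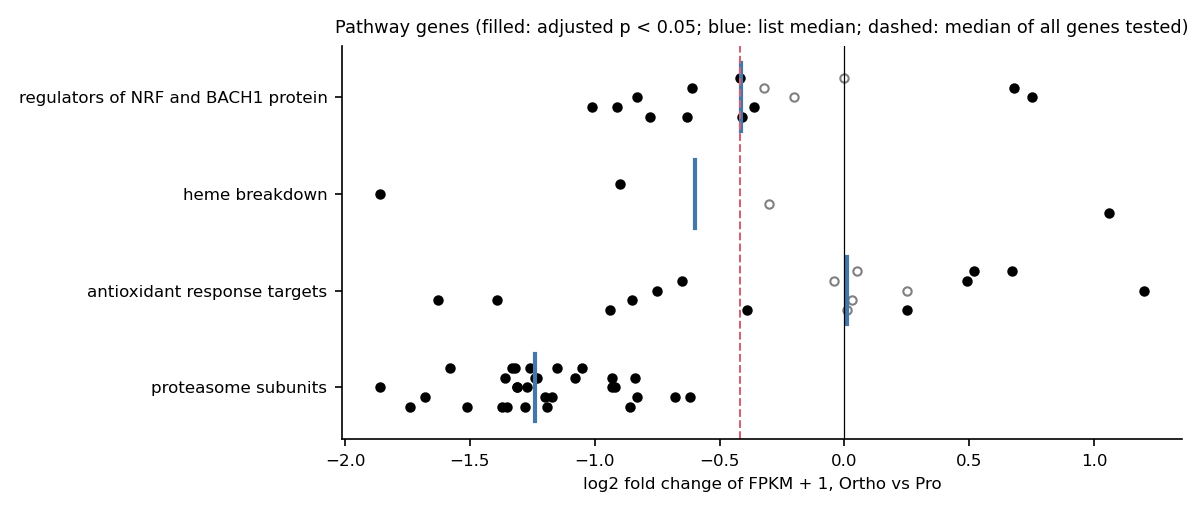
Log2 fold change of FPKM + 1 from Pro to Ortho (horizontal axis) of each tested gene in 4 pathway lists (rows). Filled points had an adjusted p under 0.05, blue bars are list medians, and the dashed line is the median of all genes tested. All 31 proteasome genes lie below 0, and the antioxidant targets lie on both sides.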

How the data were processed

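The authors trimmed reads with Cutadapt and Trimmomatic, aligned them to mm10 with HISAT2 and counted them with featureCounts, and they deposited FPKM values for 29839 lines, of which 29838 genes remained after 1 repeated identifier was removed. The tool that made the FPKM and the annotation release are not given in the sources used here. The labels and the study's methods name different extraction and library kits. Whole fragments could not be recovered from the FPKM, so the depth of the libraries is unknown and no counting error is given. The summed FPKM of a library was 505624 to 691033.

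Genes with at least 1 FPKM in at least 3 libraries, 12994 in all, entered one limma fit of all 12 libraries (version 3.58.1, R 4.3.3). Values were log2(FPKM + 1), so that 1 was the pseudocount and changes of low genes are understated, and the variance followed a trend on expression. Two-sided p-values were corrected by the Benjamini-Hochberg method over all tested genes. The fit was tested on simulated data. Positions, exon overlap and promoter windows came from GENCODE M21 and RefSeq on GRCm38, read with Python 3.11.15. From each pathway list, the 2 genes of highest mean FPKM and the 2 of largest change from Pro to Ortho were named. A related factor that this rule names is not reported here. The network's members and the lists were chosen with earlier results of these data known. Alternatives were other pseudocounts (0.1 and 5), filters and scalings, no variance trend, the compared stages alone, a replicate block and leaving out each library. The correlation of deviations of libraries with the same number was 0.156 to 0.319 between Baso, Poly and Ortho, all above 0.1, and 0.00524 to 0.0968 with Pro. Libraries of different number were not compared, and the labels name no shared mouse or day. Whether Baso, Poly and Ortho libraries are paired is therefore not settled, and the main fit held no replicate block.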

Additional observations from a re-analysis of the deposited data

How the results depend on the processing

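The number of genes called at 2-fold moved with scaling and with single libraries. In Baso it was 1 in place of 0 with hemoglobin left out (909 of 13039 tested genes called) and with libraries centred on their medians (963 of 12994). It was also 1 without Pro replicate 1 or Baso replicate 2 (range 0 to 1 over the left-out libraries). In Poly it was 0 without the filter and without Pro replicate 3 (range 0 to 1). It was 3 with hemoglobin left out (2067 of 13039 tested genes called) and 2 with libraries centred (2145 of 12994). In Ortho it was 1 with a pseudocount of 5 (Mafk), where 2088 of 12994 tested genes were called. After rescaling to the same sum it was 1 (Keap1, lower, with the 3 rising calls lost), where 5182 of 13045 were called. It was 5 with hemoglobin left out (3144 of 13039 called) or libraries centred (3371 of 12994). By adjusted p alone the counts were 5 in Baso, 5 in Poly, 7 in Ortho and 3 from Poly to Ortho. The replicate block left the counts at 0, 1, 3, 0 and 0. It changed the result of Nfe2 in Baso (0.91, adjusted p = 0.0290) and Mafg from Baso to Poly (0.28, adjusted p = 0.0366), and a mean filter of 5 FPKM dropped Maff.

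Log2 fold changes that turned sign did not pass in the main test. With hemoglobin left out and with libraries centred, Maff was 0.07 and 0.21 in Baso and 0.23 and 0.38 in Ortho, Bach1 was 0.08 and 0.09 in Baso and 0.11 and 0.12 from Poly to Ortho, and Nfe2l2 was 0.16 and 0.07 in Poly. Keap1 was -0.04 from Baso to Poly with centring, and Maff was 0.01 in Ortho with a pseudocount of 5. After rescaling to the same sum, Bach1 was -0.05 in Poly and -0.25 in Ortho, and Mafg was -0.01 from Poly to Ortho. Leaving out 1 library gave Maff a range of -0.49 to 0.25 in Baso, -0.25 to 0.41 in Poly, -0.37 to 0.24 in Ortho, -0.16 to 0.62 from Baso to Poly and -0.51 to 0.23 from Poly to Ortho. It gave Bach1 -0.03 to 0.20 in Ortho and -0.15 to 0.08 from Poly to Ortho, and Nfe2l1 -0.02 to 0.62 from Poly to Ortho. From Baso to Poly it gave Nfe2l1 -0.25 to 0.43, Mafk -0.18 to 0.06 and Keap1 -0.10 to 0.11. The causes were not tested. Of 985 fold changes under alternatives, 900 kept direction and side of the threshold, 27 lost and 24 gained the threshold and 34 turned sign.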
